A study of Homo sapiens with 15 samples.

Results

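The 30 genes described here encode enzymes and regulators of cholesterol and fatty acid synthesis, and they were taken by symbol from a table of raw read counts for 28207 genes. All 30 had a row, and all 30 were among the 18760 genes that passed the filter on low counts. They were measured in NTERA2, an established line of human embryonal carcinoma cells, a tumour cell type that expresses pluripotency genes. Cells in DMEM with 10% serum were given siRNA 2 times over 7 days. There were 5 groups with 3 libraries in each. The siControl group was given a control siRNA. The siRNA of the siIGF2BP1 group targeted an mRNA-binding protein, those of the siSRF and siFOXM1 groups each a transcription factor, and that of the siIQGAP3 group a scaffold protein. All groups share the line, the serum and the siRNA schedule. The series title concerns control of IQGAP3 by IGF2BP1 and stem cell potential, and each knockdown is compared here with siControl and with the other knockdowns.

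Cholesterol is built from acetyl-CoA through the mevalonate pathway to squalene, which is then closed into a ring and trimmed to cholesterol. SREBP transcription factors, encoded by SREBF1 and SREBF2, are held in the endoplasmic reticulum by INSIG proteins when sterols are plentiful, and are cut free and enter the nucleus when sterols fall. SREBP-2 mainly drives sterol genes, while SREBP-1c mainly drives genes of fatty acid synthesis and desaturation. Cells in serum also take up cholesterol from lipoproteins, so that synthesis and uptake are balanced against each other.

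Library totals ran from 35275570 to 44996064 counts. The smallest count of any of the 30 genes in any library was 462, so depth does not limit their values. The library numbers below only name the columns. Each targeted mRNA was lower than in siControl in every library of its own knockdown, at 20.8% of the control mean for IGF2BP1, 7.51% for SRF, 20.6% for FOXM1 and 48.0% for IQGAP3. The mRNAs of SRF, FOXM1 and IQGAP3 were also low in some of the other knockdowns. SRF was at 7.63, 7.92 and 5.30 CPM in siIGF2BP1, beside 6.67, 7.04 and 5.95 CPM in siSRF and 82.8 to 92.2 CPM in siControl, where CPM is the count scaled to a fixed library total after TMM (trimmed mean of M-values) scaling. FOXM1 had 202 to 291 CPM in siIGF2BP1, 132 to 318 CPM in siSRF, 153 to 198 CPM in siFOXM1 and 773 to 920 CPM in siControl. IQGAP3 had 13.6 to 21.4 CPM in siIGF2BP1, 13.9 to 24.5 CPM in siSRF and 4.42 to 8.75 CPM in siFOXM1, all below the 48.9 to 52.1 CPM of siIQGAP3 itself. SRF stayed at 80.1 to 101 CPM in siFOXM1 and siIQGAP3, and FOXM1 at 783 to 797 CPM in siIQGAP3. IGF2BP1 had 681 to 1080 CPM in the other knockdowns and 786 to 1039 CPM in siControl. All 10 pluripotency markers had a mean above 1 CPM in every group, though POU5F1 and NANOG were below siControl in every knockdown library. Of 6 adipocyte markers, ADIPOQ, LEP, FABP4 and CIDEC were under 1 CPM in every library, and the 6, PPARG among them, summed to 9.39 to 12.3 CPM in siControl and to 7.65 to 25.9 CPM in the knockdowns. Of 7 hepatocyte markers, ALB, TTR, FGB and CYP3A4 were under 1 CPM in every library, and the 7 summed to 3.72 to 6.96 CPM in siControl and to 1.07 to 7.20 CPM in the knockdowns. Whether a group's libraries are separate cultures is not given in the sources used here, and p-values therefore rest on a spread that may be technical.

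The siControl libraries did not match each other. Library 3 differed from libraries 1 and 2 by a chi-square of 451 and 558 per gene, against 16.9 between libraries 1 and 2. In the siIGF2BP1, siSRF and siFOXM1 groups library 3 also stood apart (124 to 267 against 2.28 to 4.48 between libraries 1 and 2), while the chi-square within siIQGAP3 was 1.82 to 4.40. Results of the 30 genes against siControl are therefore given below with and without siControl library 3.

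The lipid synthesis genes were where the control libraries parted widely. Together they took 1.47% and 1.60% of all counts in siControl libraries 1 and 2 and 0.317% in library 3. Their share was at most 1.21% in siIGF2BP1, 0.883% to 0.905% in siSRF, 0.869% to 1.18% in siFOXM1 and 0.673% to 0.694% in siIQGAP3. The siControl group held both the highest and the lowest share of the 15 libraries. This share weighs the most abundant genes most. In siControl library 1 the desaturase gene SCD alone had 226843 of the 595334 counts of the 30 genes. For 23 of the 30 genes the lowest CPM of all 15 libraries was in siControl library 3, which was the lowest library for 16.5% of all genes tested. Library 3 was more than 1.5 times below the mean of libraries 1 and 2 for 22 of the 30 genes, against 29.7% of genes expressed above 1 CPM. The median of that ratio over the 30 genes was 0.298, and the lowest was 0.0370, for SCD, the stearoyl-CoA desaturase. Only FADS1 and FADS2, desaturases of polyunsaturated fatty acids, were more than 1.5 times above the mean of libraries 1 and 2. Library 3 of siFOXM1 was likewise more than 1.5 times below libraries 1 and 2 for 16 of the 30 genes (16.9% of expressed genes), that of siSRF for 8 (22.5%), that of siIGF2BP1 for 6 (15.4%) and that of siIQGAP3 for 0 (0.244%).

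**Figure D1:**
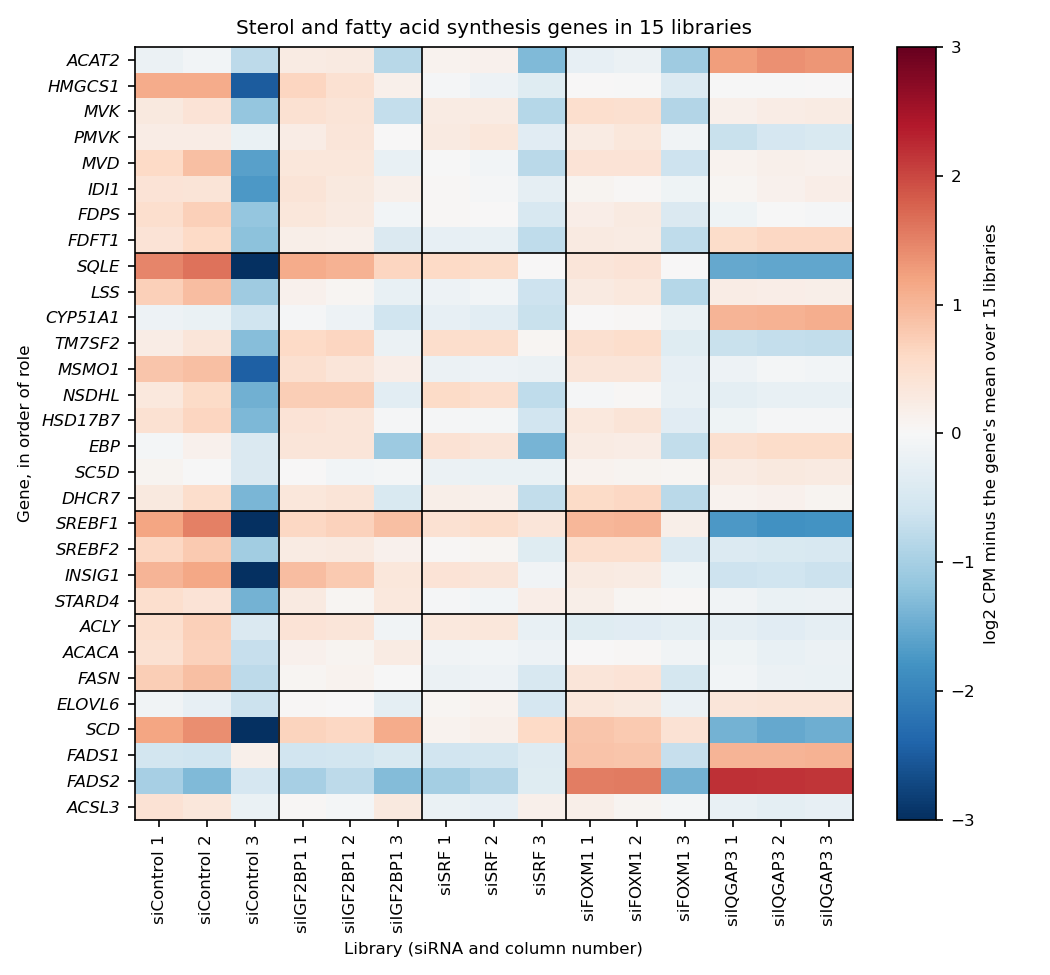
Log2 CPM of each of the 30 genes (rows, grouped by role from the mevalonate pathway at the top to fatty acid desaturation at the bottom) in each of the 15 libraries (columns), minus that gene's mean over the libraries, with the colour scale ending at 3 in each direction. The column of siControl library 3 is the darkest blue, at -3.47 for SCD and -2.49 for HMGCS1, while FADS2 is red in all 3 siIQGAP3 libraries and in siFOXM1 libraries 1 and 2.

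The mevalonate pathway makes squalene from acetyl-CoA. HMGCS1 encodes its HMG-CoA synthase, and its siControl libraries held 434, 436 and 35.8 CPM. It had 318, 277 and 225 CPM in siIGF2BP1, 196, 180.5 and 156 CPM in siSRF, 205, 199.8 and 152 CPM in siFOXM1 and 201, 199.8 and 204 CPM in siIQGAP3. All 12 knockdown libraries thus lay between siControl library 3 below and libraries 1 and 2 above. FDFT1, the squalene synthase that commits the pathway to sterols, was also low in siControl library 3, with 436, 498 and 139.7 CPM in siControl. Its knockdown levels were 368, 362 and 244 CPM in siIGF2BP1, 277, 280.1 and 194 CPM in siSRF, 394, 391 and 194 CPM in siFOXM1 and 478, 505 and 504 CPM in siIQGAP3. The siIQGAP3 libraries overlapped the controls and were above all 9 libraries of the other knockdowns.

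ACAT2 encodes the cytosolic acetoacetyl-CoA thiolase at the start of the pathway and was high in siIQGAP3. It stood at 37.5, 40.4 and 24.8 CPM in siControl and at 102, 109 and 106 CPM in siIQGAP3. Among the other knockdowns, siIGF2BP1 held 50.1, 51.0 and 24.0 CPM, siSRF 45.8, 46.8 and 16.9 CPM and siFOXM1 35.7, 37.3 and 20.4 CPM, with library 3 the lowest of each. All siIQGAP3 libraries were above all 12 others. PMVK, the phosphomevalonate kinase, was the reverse, with 19.4, 21.8 and 22.5 CPM in siIQGAP3 against 36.0, 36.1 and 26.6 CPM in siControl. Its other knockdown libraries held 36.0, 39.7 and 31.0 CPM in siIGF2BP1, 37.2, 38.9 and 24.1 CPM in siSRF and 36.3, 38.9 and 28.8 CPM in siFOXM1. PMVK was the only 1 of the 30 genes for which all siIQGAP3 libraries were below all 12 others. The kinase MVK, the decarboxylase MVD, the isomerase IDI1 and the farnesyl diphosphate synthase FDPS had their lowest value in siControl library 3. Over the 15 libraries MVK ran from 11.9 to 38.1 CPM, MVD from 25.0 to 146 CPM, IDI1 from 27.5 to 121 CPM and FDPS from 103 to 378 CPM.

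The step from squalene to cholesterol begins with SQLE, the squalene epoxidase and a rate-limiting enzyme of the route. SQLE had 1416, 1591 and 57.7 CPM in siControl and 178, 176 and 176 CPM in siIQGAP3. Levels were 1118, 1058 and 806 CPM in siIGF2BP1, 777, 763 and 524 CPM in siSRF and 661, 687 and 521 CPM in siFOXM1. The siIQGAP3 libraries were therefore below siControl libraries 1 and 2 and above library 3. MSMO1, the C4-methylsterol oxidase, had 229, 238 and 23.6 CPM in siControl, and every knockdown library lay inside that range. It held 178, 164 and 147 CPM in siIGF2BP1, 114, 115 and 114 CPM in siSRF, 166, 164 and 107 CPM in siFOXM1 and 116, 122 and 121 CPM in siIQGAP3.

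CYP51A1, the lanosterol demethylase, is a neighbour of these enzymes in the pathway but had another pattern. It stood at 70.2, 68.3 and 51.2 CPM in siControl, 75.8, 69.7 and 51.6 CPM in siIGF2BP1, 65.7, 62.5 and 49.2 CPM in siSRF and 78.7, 80.0 and 67.7 CPM in siFOXM1. In siIQGAP3 it had 158, 160.0 and 167 CPM, above all 12 other libraries. SC5D, the sterol C5-desaturase, rose less, with 97.8, 91.5 and 67.7 CPM in siControl and 109.9, 112 and 111 CPM in siIQGAP3. Its other levels were 93.0, 86.8 and 88.0 CPM in siIGF2BP1, 81.7, 80.1 and 80.6 CPM in siSRF and 98.8, 96.6 and 96.2 CPM in siFOXM1, all below siIQGAP3. TM7SF2, a sterol C14-reductase, was low in siIQGAP3 at 41.1, 39.7 and 38.8 CPM, while siControl had 75.9, 83.5 and 26.7 CPM. It had 98.3, 103 and 57.8 CPM in siIGF2BP1, 94.2, 94.1 and 67.9 CPM in siSRF and 90.5, 94.7 and 51.0 CPM in siFOXM1. The siIQGAP3 libraries were below all 9 of these and above siControl library 3.

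The other 5 enzymes of the late route did not pass the test in any comparison of the 15 libraries. They are the cyclase LSS, the dehydrogenases NSDHL and HSD17B7, the isomerase EBP and the reductase DHCR7. Over the libraries LSS ran from 126 to 504 CPM, NSDHL from 15.6 to 70.5 CPM, HSD17B7 from 9.86 to 39.6 CPM and DHCR7 from 76.8 to 303 CPM. EBP ran from 25.3 to 97.8 CPM, with its lowest value in siSRF library 3 and all siIQGAP3 libraries above all 12 others.

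Among the regulators, SREBF1 had 624, 775 and 31.9 CPM in siControl and 82.5, 77.1 and 78.9 CPM in siIQGAP3. It held 424, 442 and 512 CPM in siIGF2BP1, 376, 396 and 349.6 CPM in siSRF and 548, 553 and 312 CPM in siFOXM1. As for SQLE, siIQGAP3 lay below every library except siControl library 3. SREBF2 spread less, with 592, 667 and 187 CPM in siControl and 293, 282 and 279 CPM in siIQGAP3. Its values were 457, 465 and 427 CPM in siIGF2BP1, 399, 406 and 302 CPM in siSRF and 550.1, 554 and 290.3 CPM in siFOXM1. Only siControl library 3 was below all 3 siIQGAP3 libraries. INSIG1, the protein that retains SREBPs and is itself a known SREBP target, had 379, 418 and 17.5 CPM in siControl and 122, 124 and 120.4 CPM in siIQGAP3. In the other knockdowns it had 353, 320.0 and 236 CPM in siIGF2BP1, 248, 242 and 173 CPM in siSRF and 225, 222 and 170.2 CPM in siFOXM1. The siIQGAP3 libraries were below all others except siControl library 3. STARD4, a carrier of sterols between membranes, ran from 16.9 to 63.5 CPM, again lowest in siControl library 3.

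Fatty acid synthesis starts with ACLY, which makes cytosolic acetyl-CoA from citrate, continues with the carboxylase ACACA, and ends with the synthase FASN. FASN had 2128, 2401 and 747 CPM in siControl and 1213, 1128 and 1111 CPM in siIQGAP3. Levels in the remaining groups were 1331, 1363 and 1270.5 CPM for siIGF2BP1, 1122, 1150.3 and 915 CPM for siSRF and 1650.1, 1688 and 891 CPM for siFOXM1. Every knockdown library was below siControl libraries 1 and 2 and above library 3. ACLY ran from 321 to 709.7 CPM and ACACA from 112 to 295 CPM, both with their lowest value in siControl library 3 and their highest in library 2.

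SCD puts the first double bond into saturated fatty acids and spread most widely of the 30 genes between the control libraries. It stood at 5779, 6677 and 230.4 CPM in siControl and at 958, 886 and 929.6 CPM in siIQGAP3. Values were 4039.6, 3909.6 and 5549 CPM in siIGF2BP1, 2759.6, 2848 and 3856 CPM in siSRF and 4540.3, 4423 and 3429 CPM in siFOXM1. The siIQGAP3 level was thus below 11 libraries and above siControl library 3. FADS2 and FADS1, desaturases of polyunsaturated fatty acids, were high where SCD was low in siIQGAP3. FADS2 had 81.4, 64.9 and 114 CPM in siControl, 81.3, 93.3 and 66.0 CPM in siIGF2BP1 and 80.2, 88.5 and 127 CPM in siSRF. It had 467, 475 and 60.4 CPM in siFOXM1 and 735, 727 and 721 CPM in siIQGAP3. All siIQGAP3 libraries were the highest of the 15, siFOXM1 libraries 1 and 2 came next, and siFOXM1 library 3 was the lowest of all. FADS1 had 104, 101 and 169 CPM in siControl, 103, 104 and 112 CPM in siIGF2BP1 and 103, 105 and 117 CPM in siSRF. It had 279, 275 and 95.4 CPM in siFOXM1 and 309, 312 and 316 CPM in siIQGAP3, so the same 5 libraries were the highest. ELOVL6, the elongase of saturated fatty acids, had 39.3, 35.3 and 26.9 CPM in siControl and 54.0, 55.2 and 55.2 CPM in siIQGAP3. It held 43.1, 42.6 and 34.1 CPM in siIGF2BP1, 43.8, 44.96 and 29.5 CPM in siSRF and 53.0, 52.0 and 37.3 CPM in siFOXM1, all below siIQGAP3. The acyl-CoA synthetase ACSL3 ran from 159.5 to 263 CPM.

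**Figure D2:**
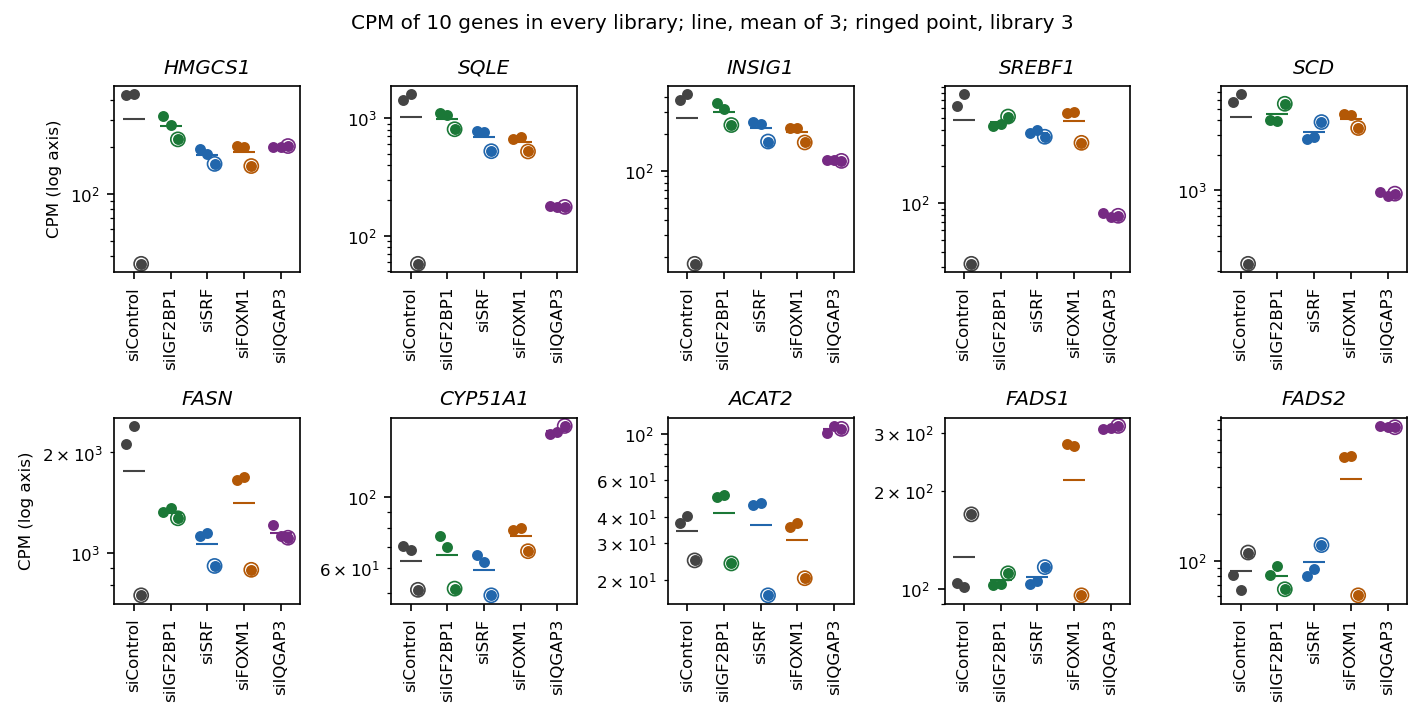
CPM on a log axis of 10 of the genes in every library, with points for libraries 1 to 3 of each group from left to right, a ring around library 3 and a line at the mean of 3. For HMGCS1, SQLE, INSIG1, SREBF1, SCD and FASN the ringed siControl point is the lowest of the panel, and for FADS1 and FADS2 the siIQGAP3 points and siFOXM1 libraries 1 and 2 are the highest.

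FADS1 and FADS2 lie on opposite strands of chromosome 11. In the RefSeq table (GRCh38.p14) the FADS1 start is 800 and 599 bases downstream of the 2 starts listed for FADS2, so that transcripts from these starts overlap there. Whether the counting used strand is not given in the sources used here, and without strand, reads from that overlap cannot be told apart. Their promoters (250 bases before the start to 50 after) are shown because both genes were high in the same 5 libraries, beside those of SCD and INSIG1, which were lowest in siControl library 3. RefSeq promoters were at hand for 26 of the 30 genes, 35 promoters in all, and not for ACAT2, FDFT1, SQLE or FASN. Each was searched on both strands for CCAAT, the box bound by NF-Y, for CACNCCA, a core of sterol regulatory elements, and for GGGCGG, the box bound by Sp1, and overlapping matches of different words each counted. CCAAT was in 25 of the 35 promoters (71.4%, against 34.6% of all 35116), CACNCCA in 13 (37.1% against 17.6%) and GGGCGG in 31 (88.6% against 45%). A gene with several listed starts was counted for each, so these are shares of promoters and not of genes. Capitals mark CCAAT and CACNCCA or their reverse complements in the sequences, which read in the direction of the gene. FADS1 is at chr11:61816954-61817253 on the minus strand, the second FADS2 start at chr11:61816154-61816453 on the plus strand, SCD at chr10:100346983-100347282 on the plus strand and INSIG1 at chr7:155297628-155297927 on the plus strand.
FADS1: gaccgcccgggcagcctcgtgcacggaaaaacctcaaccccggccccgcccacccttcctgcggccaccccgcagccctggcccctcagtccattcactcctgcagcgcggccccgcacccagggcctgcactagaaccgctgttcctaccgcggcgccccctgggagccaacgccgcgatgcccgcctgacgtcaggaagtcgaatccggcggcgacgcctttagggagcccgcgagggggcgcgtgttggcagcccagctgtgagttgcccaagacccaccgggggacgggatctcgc
FADS2: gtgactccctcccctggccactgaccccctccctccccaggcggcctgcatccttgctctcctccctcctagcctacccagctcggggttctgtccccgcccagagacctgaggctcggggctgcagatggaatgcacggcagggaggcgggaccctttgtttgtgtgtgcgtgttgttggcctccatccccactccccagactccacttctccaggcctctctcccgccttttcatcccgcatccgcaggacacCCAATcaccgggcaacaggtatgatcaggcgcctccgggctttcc
SCD: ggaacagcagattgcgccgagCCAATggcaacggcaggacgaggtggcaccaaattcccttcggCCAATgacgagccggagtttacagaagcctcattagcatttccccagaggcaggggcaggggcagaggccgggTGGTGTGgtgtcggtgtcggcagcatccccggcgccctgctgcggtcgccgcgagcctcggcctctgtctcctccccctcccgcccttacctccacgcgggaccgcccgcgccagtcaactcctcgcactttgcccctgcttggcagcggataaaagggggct
INSIG1: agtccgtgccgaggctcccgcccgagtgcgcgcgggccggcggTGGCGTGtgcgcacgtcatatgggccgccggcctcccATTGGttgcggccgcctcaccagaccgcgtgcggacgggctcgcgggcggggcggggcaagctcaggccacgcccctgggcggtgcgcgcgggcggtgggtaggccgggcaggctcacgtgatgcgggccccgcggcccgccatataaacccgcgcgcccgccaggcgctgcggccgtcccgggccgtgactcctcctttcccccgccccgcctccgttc
The SCD promoter held 2 CCAAT words and 1 CACNCCA word, and that of INSIG1 held 1 of each. The FADS1 promoter held neither word, that of the second FADS2 start held CCAAT just after the start, and that of the first FADS2 start, not shown, held neither. Any FADS2 start outside those listed was not searched. A match is a run of letters, and binding was not measured.

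Genes beside the FADS pair were looked at after the values were seen. Of MYRF, TMEM258, FEN1, FADS3, RAB3IL1 and BEST1, only RAB3IL1 passed the test in siIQGAP3 against siControl, and it fell by 1.52 on the log2 scale (SE 0.40, edgeR adjusted p = 0.0129, overlapping libraries). Its difference from siControl library 3 alone was 0.03 (adjusted p = 0.975). FADS3 stood at 45.4 ± 2.61 CPM in siIQGAP3 and 69.4 ± 8.50 CPM in siControl (SD, n = 3, edgeR adjusted p = 0.0510). MYRF had 96.2, 94.5 and 92.4 CPM in siIQGAP3 and 40.0, 44.9 and 82.3 CPM in siControl (edgeR adjusted p = 0.335), with every siIQGAP3 library above the controls. It had 145.2, 144 and 70.5 CPM in siFOXM1, so that libraries 1 and 2 were again above library 3.

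Each knockdown was then compared with all 3 siControl libraries by edgeR's quasi-likelihood F test, fitted over all genes and 15 libraries and adjusted by the Benjamini-Hochberg method, with 0.05 as the threshold. In siIGF2BP1 0 of the 30 genes passed (1.62% of all genes did), and 0 had an unadjusted p under 0.05. In siSRF 0 passed (1.57% of all genes), again with 0 at the unadjusted level. In siFOXM1 0 passed (1.12% of all genes) and 4 had an unadjusted p under 0.05, namely FADS2, ACLY, FADS1 and ELOVL6. How many of all genes had an unadjusted p under 0.05 was not counted. Of the 30, DESeq2 called FADS2 in siFOXM1 and 0 in siIGF2BP1 and siSRF. Over all genes DESeq2 called 253 higher and 610 lower of 19699 in siFOXM1. It called 256 and 857 of 20181 in siIGF2BP1, and 341 and 789 of 20181 in siSRF. The FADS2 log2 fold change in siFOXM1 was 1.95 ± 0.54 (SE, edgeR adjusted p = 0.121), and the median log2 fold change of the 30 genes was 0.03 in siIGF2BP1, -0.25 in siSRF and -0.04 in siFOXM1. Over all genes these medians were 0.01, 0.01 and -0.02.

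In siIQGAP3 10 of the 30 genes passed, or about the share of all genes that did (32.5%). Those higher were ACAT2, CYP51A1, SC5D, ELOVL6, FADS1 and FADS2, 6 of 30 (10.8% of all genes). Those lower were PMVK, SQLE, SREBF1 and SCD, 4 of 30 (21.7%). FADS2 rose by a log2 fold change of 3.07 ± 0.56 (SE, edgeR adjusted p = 0.00204), and FADS1 by 1.32 ± 0.32 (SE, edgeR adjusted p = 0.00855). CYP51A1 rose by 1.35 ± 0.17 (SE, edgeR adjusted p = 0.000289) and ACAT2 by 1.63 ± 0.39 (SE, edgeR adjusted p = 0.00835). These 4 calls held whichever single library of either group was left out, and all but that of CYP51A1 were lost against siControl library 3 alone. The log2 fold changes were then 2.10 for ACAT2 (edgeR adjusted p = 0.0600), 0.89 for FADS1 (adjusted p = 0.265) and 2.68 for FADS2 (adjusted p = 0.0955). The ACAT2 call was also lost against siControl library 1 or 2 alone (adjusted p = 0.0790 and 0.0873). ELOVL6 rose by 0.70 ± 0.20 (SE, edgeR adjusted p = 0.0193) and SC5D by 0.37 ± 0.12 (SE, edgeR adjusted p = 0.0373), and both calls were lost without any 1 of the siIQGAP3 libraries (adjusted p = 0.0510 to 0.0562 for ELOVL6 and 0.0891 to 0.100 for SC5D). Leaving out siControl library 2 ended the SC5D call as well (adjusted p = 0.0578).

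The lower calls rested on which control libraries were used. SREBF1 had a log2 fold change of -2.59 ± 0.72 (SE, edgeR adjusted p = 0.0167), SQLE of -2.53 ± 0.74 (SE, edgeR adjusted p = 0.0211) and SCD of -2.19 ± 0.74 (SE, edgeR adjusted p = 0.0389), although siControl library 3 was below siIQGAP3 for all of them. Against siControl library 3 alone the sign turned, to 1.32 for SREBF1 (edgeR adjusted p = 0.0166), 1.62 for SQLE (adjusted p = 0.00413) and 2.01 for SCD (adjusted p = 0.00198). PMVK fell by 0.63 on the log2 scale (SE 0.20, adjusted p = 0.0304) with all libraries below the controls, and by 0.32 against siControl library 3 alone (adjusted p = 0.510). All 4 lower calls were lost without siControl library 1 or 2 and without any 1 of the siIQGAP3 libraries.

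Setting each control library apart gave opposite directions for the 30 genes as a group. The median difference in log2 CPM of siIGF2BP1 was -0.28 from siControl library 1, -0.42 from library 2 and 1.23 from library 3. For siSRF these were -0.51, -0.63 and 0.99, for siFOXM1 -0.41, -0.55 and 1.18, and for siIQGAP3 -0.57, -0.75 and 1.28. Over all genes the same medians lay between -0.01 and 0.04. Against library 3 alone, 18, 15, 18 and 16 of the 30 genes passed in siIGF2BP1, siSRF, siFOXM1 and siIQGAP3, all of them higher, where 20.8%, 18.8%, 17.0% and 3.63% of all genes passed as higher. Against library 1 alone 0, 3, 2 and 16 passed, with 0.755%, 1.22%, 1.15% and 37.3% of all genes. Against library 2 alone 0, 4, 4 and 18 passed, with 0.365%, 1.73%, 2.36% and 43.8% of all genes. In these fits the lone library was taken to vary like the libraries of the other groups.

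**Figure D3:**
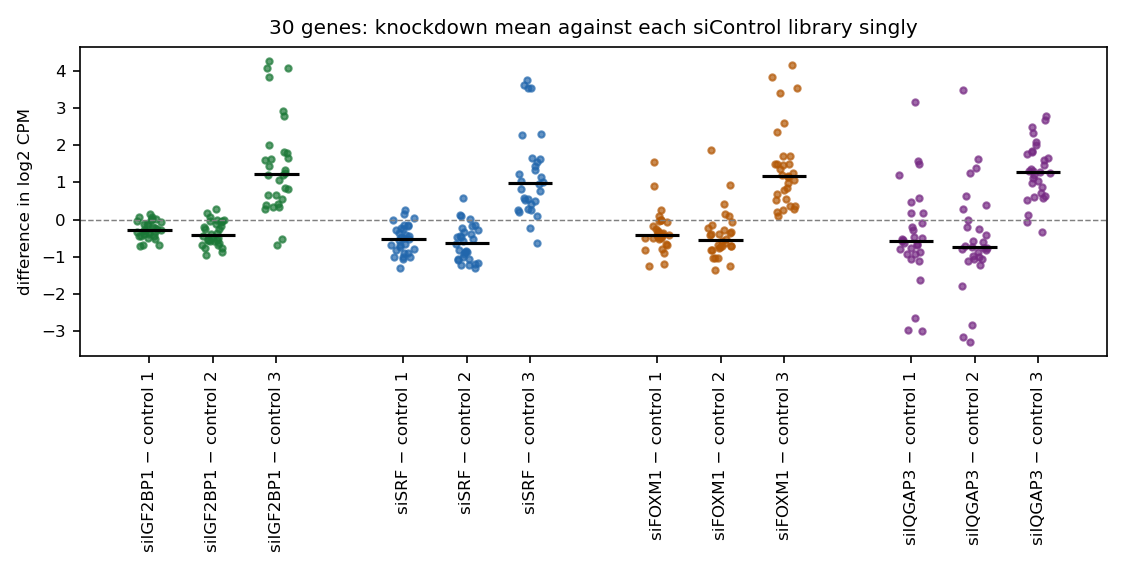
Difference in log2 CPM between the mean of each knockdown and each siControl library taken alone, with 1 point for each of the 30 genes and a bar at the median. The medians are below 0 for control libraries 1 and 2 and above 0 for library 3 in all 4 knockdowns, at -0.57, -0.75 and 1.28 in siIQGAP3.

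Without siControl library 3 more genes passed in every knockdown. In siIGF2BP1 HMGCS1 (-0.67 ± 0.16 on the log2 scale, edgeR adjusted p = 0.0498) and ACACA (-0.42 ± 0.10, adjusted p = 0.0435) were lower, where 1.58% of all genes passed as lower. In siSRF 11 of the 30 were lower and 0 higher (3.79% of all genes lower), namely HMGCS1, IDI1, SQLE, LSS, MSMO1, SREBF1, INSIG1, STARD4, ACACA, FASN and SCD. HMGCS1 had a log2 fold change of -1.29 ± 0.16 (edgeR adjusted p = 0.00135) and FASN of -1.09 ± 0.22 (edgeR adjusted p = 0.0137). In siFOXM1 6 were lower (4.33% of all genes lower), namely HMGCS1, SQLE, MSMO1, INSIG1, ACLY and ACACA, with SQLE at -1.27 ± 0.19 (edgeR adjusted p = 0.00289). In siIQGAP3 16 were lower (30.1% of all genes) and the same 6 were higher (26.4%). SREBF1 was then at -3.14 ± 0.21 (edgeR adjusted p = 2.84e-07), SQLE at -3.09 ± 0.19 (edgeR adjusted p = 1.56e-07), SCD at -2.75 ± 0.20 (edgeR adjusted p = 4.26e-07) and INSIG1 at -1.71 ± 0.19 (edgeR adjusted p = 1.69e-05). With library 3 of every group left out, 21, 25, 25 and 29 of the 30 genes passed in siIGF2BP1, siSRF, siFOXM1 and siIQGAP3, and 48.9%, 54.2%, 52.9% and 80.6% of all genes did. Without siFOXM1 library 3 alone, FADS1 (1.17 ± 0.19, adjusted p = 0.0121) and FADS2 (2.46 ± 0.25, adjusted p = 0.000575) passed as higher in siFOXM1, as did 0.704% of all genes.

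The knockdowns can be set against each other without the control libraries. Between siIGF2BP1 and siSRF 0 of the 30 genes passed (0.00533% of all genes did), with 0 at an unadjusted p under 0.05. The log2 fold change was above 0 for 28 of 30, with a median of 0.25 against -0.02 over all genes, and for 11 genes every siIGF2BP1 library was above every siSRF library (4.10% of all genes). Those 11 were HMGCS1, IDI1, SQLE, MSMO1, HSD17B7, SC5D, SREBF1, SREBF2, ACACA, FASN and SCD. Between siIGF2BP1 and siFOXM1 0 passed (0.0107% of all genes) and 3 had an unadjusted p under 0.05, and between siSRF and siFOXM1 0 passed (0.00533%) and 2 did. The unadjusted level was again not counted over all genes. Of the 30, DESeq2 called 1 gene, FADS2, in siIGF2BP1 against siFOXM1 and 0 in siIGF2BP1 against siSRF and in siSRF against siFOXM1. Over all genes it called 7 higher and 57 lower of 18255, 0 and 2 of 24520, and 10 and 35 of 17291, respectively.

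The siIQGAP3 libraries were also set against each other knockdown. Against siIGF2BP1 9 of 30 passed (49.9% of all genes), with ACAT2, CYP51A1, FADS1 and FADS2 higher and PMVK, SQLE, TM7SF2, SREBF1 and SCD lower. Against siSRF 9 passed (42.8%), with ACAT2, CYP51A1, SC5D, FADS1 and FADS2 higher and PMVK, SQLE, TM7SF2 and SREBF1 lower. Against siFOXM1 5 passed (36.8%), with ACAT2 and CYP51A1 higher and PMVK, SREBF1 and SCD lower. These 3 comparisons share the siIQGAP3 libraries. SREBF1 had a log2 fold change of -2.53 ± 0.72 (SE, edgeR adjusted p = 0.0123) against siIGF2BP1, of -2.23 ± 0.71 (SE, edgeR adjusted p = 0.0239) against siSRF and of -2.57 ± 0.72 (SE, edgeR adjusted p = 0.0154) against siFOXM1, with no overlap of libraries in any of them. The SREBF1 call against siFOXM1 was lost without any 1 of the siIQGAP3 libraries (edgeR adjusted p = 0.0514 to 0.0540), and that against siSRF also without siSRF library 1 or 2 (adjusted p = 0.0511 to 0.0709 over these 5 fits). The calls of PMVK, SQLE and TM7SF2 against siSRF were likewise lost without siSRF library 1 or 2. Of the 6 fits without 1 library, 5 ended the calls of SQLE and TM7SF2 against siSRF and 4 that of PMVK. Against siIGF2BP1 5 of 6 ended the TM7SF2 call and 4 that of SCD. Against siFOXM1 6 of 6 ended the SCD call and 3 that of PMVK. Apart from those of SREBF1 above, the remaining calls held in all 6. FADS2 had 3.18 ± 0.56 (SE, edgeR adjusted p = 0.00113) against siIGF2BP1 and 1.12 ± 0.53 (SE, edgeR adjusted p = 0.110) against siFOXM1. The siIQGAP3 libraries were above all 12 others for 7 of the 30 genes (16.1% of all genes) and below all 12 for 1 (16.1%).

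**Figure D4:**
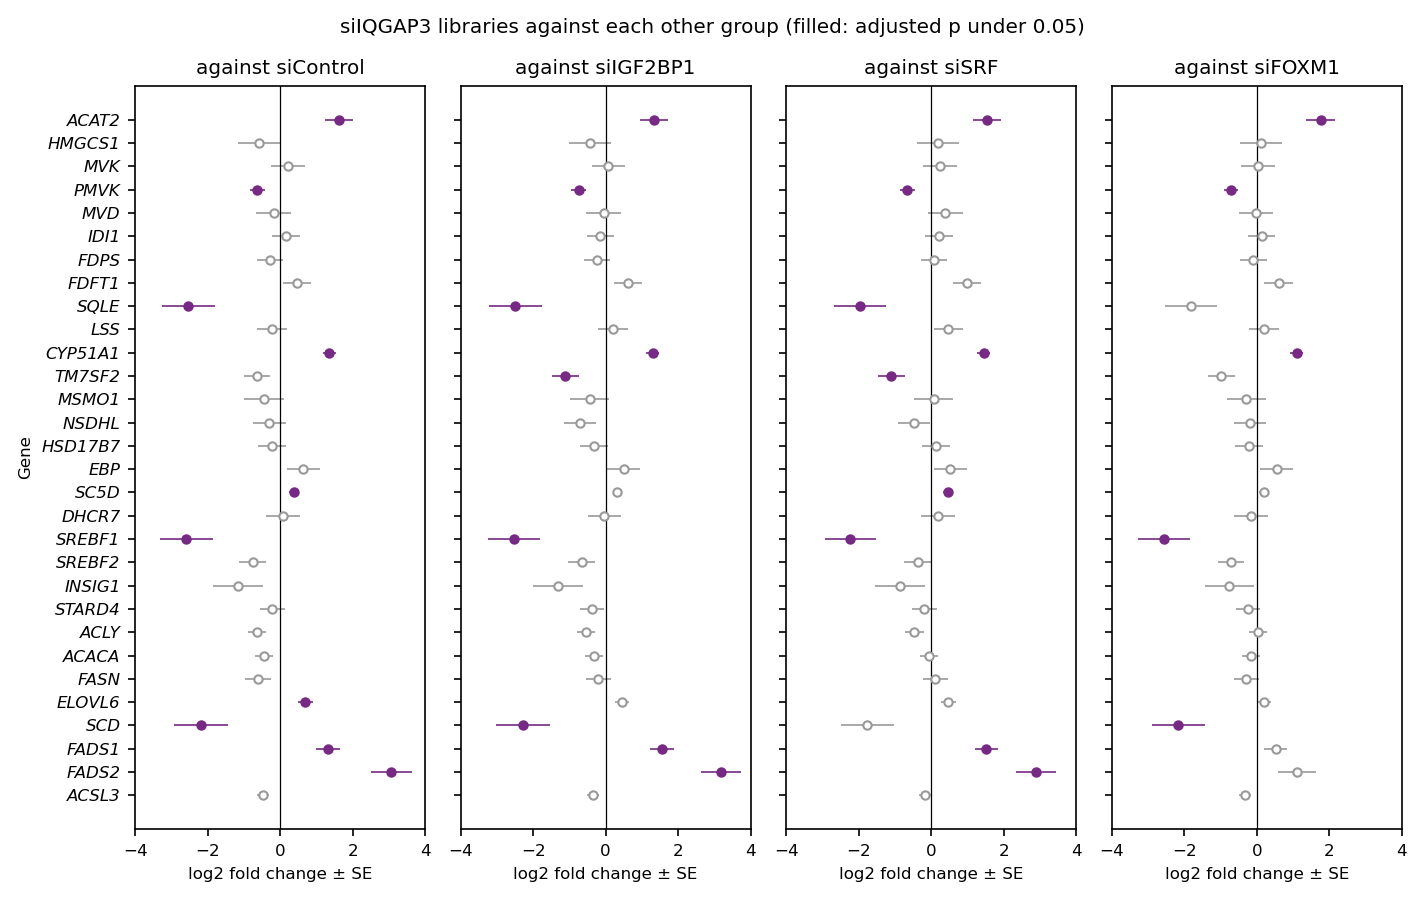
Log2 fold change ± SE of each of the 30 genes in siIQGAP3 against siControl, siIGF2BP1, siSRF and siFOXM1, from the fit of all 15 libraries, with filled points for adjusted p under 0.05. ACAT2 and CYP51A1 are filled to the right and PMVK and SREBF1 to the left in all 4 panels, while most sterol enzymes lie near 0 with wide bars.

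Other genes of lipid metabolism were counted in the same fit. Of 23 tested genes of the SREBP pathway outside the 30, siIQGAP3 had 3 higher and 8 lower than siControl (10.8% and 21.7% of all genes). ME1, the cytosolic malic enzyme that supplies NADPH, had 4, 5 and 5 counts in siIQGAP3, 29 in siControl library 3 and 3669 and 3798 in libraries 1 and 2 (edgeR adjusted p = 0.000937). It had 2316 to 4374 counts in the other 9 libraries. The carboxylase ACACB (-1.08 ± 0.15) and the synthetase AACS (-1.16 ± 0.21) were also lower. Of 15 genes of liver X receptor signalling and sterol export and storage, 0 were higher and 6 lower (10.8% and 21.7% of all genes), among them the exporter ABCG1, at 111, 127 and 0.918 CPM in siControl and 4.11, 3.87 and 4.71 CPM in siIQGAP3. The receptor gene NR1H3, the ubiquitin ligase gene MYLIP and the lysosomal lipase gene LIPA were lower as well. LIPA had 140.1, 146.0 and 26.6 CPM in siControl and 34.6, 32.5 and 32.5 CPM in siIQGAP3. For ABCG1 and LIPA siControl library 3 was thus below siIQGAP3, and against that library alone the log2 fold change was 2.21 for ABCG1 (edgeR adjusted p = 0.00196) and 0.32 for LIPA (adjusted p = 0.227). It was -0.31 for NR1H3 (adjusted p = 0.326), -0.31 for MYLIP (adjusted p = 0.677) and -2.22 for ME1 (adjusted p = 0.000601).

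Of 24 genes of fatty acid oxidation and uptake, 3 were higher and 8 lower in siIQGAP3 (10.8% and 21.7% of all genes). CPT1A, the carnitine palmitoyltransferase that admits fatty acids to mitochondria, had 117, 154 and 56.7 CPM in siControl and 14.3, 12.8 and 12.7 CPM in siIQGAP3 (log2 fold change -3.04 ± 0.28, edgeR adjusted p = 4.39e-05). ACADVL, the very long chain acyl-CoA dehydrogenase, fell by 1.01 on the log2 scale. The transporter SLC27A1 fell by 2.71, and the short chain dehydrogenase ACADS fell by 1.84. Without siControl library 3 the 3 lists had 7, 3 and 4 genes higher and 10, 9 and 9 lower in siIQGAP3 (26.4% and 30.1% of all genes). In the other knockdowns 1 gene passed in each of siSRF and siFOXM1 and 0 in siIGF2BP1 over these 3 lists (1.57%, 1.12% and 1.62% of all genes). PPARG, a nuclear receptor of fat storage, was at 24.3, 23.2 and 21.9 CPM in siSRF and 9.58, 10.8 and 8.79 CPM in siControl (1.25 ± 0.22, edgeR adjusted p = 0.0115). ACACB was at 19.0 ± 1.57 CPM in siFOXM1 and 30.4 ± 3.91 CPM in siControl (SD, n = 3, edgeR adjusted p = 0.0457).

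Cell state markers differed between the same libraries. The summed CPM of the 10 pluripotency markers was 2202 and 1753 in siControl libraries 1 and 2, 4435 in library 3 and 4798 to 4933 in siIQGAP3. It was 403 to 511 in siIGF2BP1, 428 to 511 in siSRF, and 1245, 1284 and 281 in siFOXM1 libraries 1, 2 and 3. The sum did not stand for each marker. POU5F1 had 906, 874 and 711 CPM in siControl, 57.9 to 60.8 CPM in siIQGAP3 and 19.6 to 84.4 CPM in the other 9 libraries. NANOG had 80.0, 100 and 69.5 CPM in siControl, 7.87 to 8.08 CPM in siIQGAP3 and 1.64 to 7.26 CPM in the other 9 libraries. The remaining pluripotency markers were higher in siIQGAP3 than in siControl libraries 1 and 2. The 9 fibroblast markers summed to 7596 and 8873 CPM in siControl libraries 1 and 2, 2019 in library 3 and 2812 to 2848 in siIQGAP3, with 4563 to 10959 in the other 9 libraries. Their mean was above 1 CPM for 9 of 9 in siControl and 7 of 9 in siIQGAP3. THY1 and PDGFRB went against the sum. THY1 had 80.6, 91.9 and 235 CPM in siControl and 253 to 260 CPM in siIQGAP3. PDGFRB had 25.7, 22.9 and 67.0 CPM in siControl and 106 to 113 CPM in siIQGAP3. The remaining fibroblast markers were lower in siIQGAP3 than in siControl libraries 1 and 2. DCN had 0 counts in siControl library 3, which allows up to 3, and 0.548, 0.202 and 0.495 CPM in siIQGAP3. The 5 endothelial markers summed to 30.4, 18.6 and 89.0 CPM in siControl, 75.7 to 80.9 in siIQGAP3, 58.2, 57.8 and 4.72 in siFOXM1 and 5.74 to 9.95 in siIGF2BP1 and siSRF, with PECAM1 under 1 CPM in every library. The 6 neuronal markers summed to 442 to 470 CPM in siIQGAP3 and 481 in siSRF library 3, and to 128 to 231 in the other 11 libraries. The 8 blood and macrophage markers summed to 4.13 to 13.4 CPM over the 15 libraries. Within siFOXM1, the libraries with high FADS2 (467 and 475 CPM) were those with the higher pluripotency sums. The siIQGAP3 libraries likewise combined the highest sums with the highest FADS2, 721 to 735 CPM. Within siControl and siIGF2BP1, FADS2 ranked the libraries as the sum did, with both highest in library 3 of siControl. Within siSRF, library 3 had the lowest sum (428) and the highest FADS2 (127 CPM). Between siControl and siFOXM1 the levels did not go together. Every control library exceeded all siFOXM1 libraries in its pluripotency sum. FADS2 was at 64.9 to 114 CPM in siControl, below siFOXM1 libraries 1 and 2. The part of these markers in the lipid gene results was not tested. In bulk RNA, fewer cells of a kind and less RNA in each cell cannot be told apart.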

How the data were processed

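The data are RNA sequencing tables of 15 NTERA2 libraries, 3 for each of 5 siRNAs. The reads were paired, of 100 bp, from a DNBSEQ platform, per the labels' protocols. The submitters' processing notes name STAR, SAMtools, featureCounts and GRCh37. Versions, gene annotation and strandedness of the counting are not given in the sources used here. Reads of overlapping, antisense or near-identical genes may therefore be split differently by another counting. The authors deposited raw counts per gene and a normalised signal. For all 30 genes that deposited signal equalled the count multiplied by a factor of its library (tolerance 1e-06), and it was used only for this check. Columns carry the siRNA and no replicate number, so libraries are numbered in column order only to name them.

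Genes were kept by filterByExpr, which left 18760, and scaled by TMM. The test was edgeR 4.0.16's quasi-likelihood F test (R 4.3.3) in 1 fit of 5 groups and 15 libraries, without covariates and leaving 10 residual degrees of freedom, and Benjamini-Hochberg adjustment over all genes tested at 0.05. It was tested on simulated data in which no library was set apart from its group. That run therefore does not cover the third libraries seen here. Values are mean ± SD of 3 libraries, or log2 fold change ± SE. Alternatives were DESeq2 1.42.0, its size factors or library size in place of TMM, no filter, only the 2 groups compared, each library left out, the third libraries left out, and each siControl library alone. Refitting the other gene lists and the neighbours of FADS1 and FADS2 without siControl library 3, or against it alone, was chosen after seeing the data. The members and lists were chosen with earlier results of these data known. Per-library values are given for genes past the threshold in a comparison and for HMGCS1, FDFT1, SQLE, MSMO1, INSIG1, SREBF1, SREBF2, FASN, SCD and FADS2, other members by their range, and up to 4 genes of each other list with the smallest p past the threshold. The result of 1 such gene is not reported here. The difference in log2 CPM from a single control used a prior count of 2. Promoters are RefSeq's, on GRCh38.p14, which is not the build of the counts.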

Additional observations from a re-analysis of the deposited data

How the results depend on the processing

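How many of the 30 genes passed depended on which libraries entered. Leaving out 1 library at a time gave 0 to 2 genes in siIGF2BP1 against siControl, 0 to 11 in siSRF, 0 to 6 in siFOXM1 and 4 to 22 in siIQGAP3, with each highest value reached without siControl library 3. Counts over all 18965 to 19072 genes tested moved too. They were 67 to 581, 103 to 1273, 68 to 1548 and 3519 to 10711 in the same order. Between the knockdowns, leaving out 1 library gave 0 of the 30 in siIGF2BP1 against siSRF, 0 to 2 in siIGF2BP1 against siFOXM1 and in siSRF against siFOXM1, and 7 to 8, 5 to 9 and 2 to 5 in siIQGAP3 against siIGF2BP1, siSRF and siFOXM1. Over all genes these were 1, 2 to 206, 1 to 175, 7003 to 8899, 5655 to 9641 and 4536 to 6229. With the third library of every group left out, 21, 25, 25 and 29 genes passed against siControl in siIGF2BP1, siSRF, siFOXM1 and siIQGAP3. That setting gave 9 in siIGF2BP1 against siSRF, 19 in siIGF2BP1 against siFOXM1, 23 in siSRF against siFOXM1, and 29, 17 and 25 in siIQGAP3 against siIGF2BP1, siSRF and siFOXM1, where 1.39%, 53.4%, 56.5%, 80.9%, 80.4% and 76.0% of all genes passed. Against siControl library 1 alone 3, 2 and 16 genes passed in siSRF, siFOXM1 and siIQGAP3, against library 2 alone 4, 4 and 18, and against library 3 alone 15, 18 and 16, with 18 in siIGF2BP1. Against library 3 alone the log2 fold change in siIQGAP3 turned to 2.01 for SCD, 1.62 for SQLE and 1.32 for SREBF1. With only the 2 groups fitted, 5 genes passed in siIQGAP3 against siControl, 12 against siFOXM1 and 23 against siIGF2BP1, with 20.7%, 61.6% and 68.6% of all genes. DESeq2 called 1 gene, FADS2, in siFOXM1 against siControl and 1 in siIGF2BP1 against siFOXM1. Other scalings and no filter moved none of these counts of members by over 1.5 times. Over all genes DESeq2 called 256 higher and 857 lower in siIGF2BP1 against siControl, where edgeR called 54 and 249, 341 and 789 in siSRF (edgeR 69 and 225) and 253 and 610 in siFOXM1 (edgeR 54 and 156). With only the 2 groups fitted these were 0 and 4, 0 and 1, and 2 and 5, and 1439 and 2180 in siIQGAP3 (2034 and 4062 with all groups). For results whose values moved, the cause was not tested. No paired analysis was possible because the columns carry no replicate numbers.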
